A study of Mus musculus with 6 samples.

Results

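The genes described here were the secreted Wnt ligands, their Frizzled receptors and 2 families of secreted antagonists, the secreted frizzled-related proteins (Sfrp) and the Dickkopf proteins (Dkk). They were chosen by gene symbol alone: a row of the deposited transcript table was kept where its symbol was Wnt, Fzd, Sfrp or Dkk followed by its number. That rule found 37 genes on 53 transcript rows, out of 23276 gene symbols on 54721 rows. They were 19 Wnt ligands, 10 Frizzled receptors, 4 Sfrp antagonists and 4 Dkk antagonists. *Frzb*, the table's symbol for another gene of the Sfrp family, is one that the rule leaves out, and its level is given among the other inhibitors.

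RNA was sequenced from whole kidneys of 6 mice at postnatal day 22, with 3 libraries in each of 2 groups. Mice of the *Pkd1* F/RC SKO group carried KspCre and, at *Pkd1*, 1 floxed allele and 1 RC allele, a hypomorphic point mutation. The *Pkd1* F/RC DKO group shared all of these and was in addition homozygous for the floxed miR-17∼92 cluster (F/F). KspCre is active in kidney tubule epithelium, so that other kidney cells of both groups keep the floxed alleles whole, and neither group was a wild-type control. Levels are given as the authors' mean over all 6 libraries of both groups, in CPM (read counts scaled to the same total in every library), because the value used from the table is this mean. Values of single libraries and of each genotype were not analysed here, so no level carries an error and the order of close levels was not tested. In RNA of a whole organ, more cells of a type and more RNA per cell cannot be told apart.

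Wnt proteins are lipid-modified secreted ligands that act over short distances. They bind the cysteine-rich domain of Frizzled receptors, together with Lrp5 and Lrp6 for the β-catenin branch or with Ror and Ryk receptors for other branches. Sfrp proteins carry a similar cysteine-rich domain and bind Wnt ligands outside the cell, and Dkk1, Dkk2 and Dkk4 bind Lrp5 and Lrp6, while Dkk3 is the divergent member of its family. In the developing kidney, Wnt9b from the ureteric bud and Wnt4 from the mesenchyme are known for starting nephron formation, and Wnt7b for orienting growth of the medulla.

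By design the groups differed in the miR-17∼92 cluster in tubule cells, so the mature miRNAs of the cluster are shown first, with the sites that match them in transcripts of the genes described here. A miRNA pairs with its target mainly through its seed, bases 2 to 8 counted from the 5′ end. The 6 sequences below are from RefSeq (GRCm38.p6, plus strand of chromosome 14), printed 5′ to 3′ with the seed in capitals.
mmu-miR-17-5p: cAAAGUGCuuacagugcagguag
mmu-miR-20a-5p: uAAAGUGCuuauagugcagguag
mmu-miR-18a-5p: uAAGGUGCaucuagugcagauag
mmu-miR-19a-3p: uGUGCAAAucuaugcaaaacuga
mmu-miR-19b-3p: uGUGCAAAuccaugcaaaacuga
mmu-miR-92a-3p: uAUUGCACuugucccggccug
miR-17 and miR-20a share 1 seed, and miR-19a and miR-19b share another. Among these 6 sequences, miR-18a and miR-92a each have a seed of their own, and miRNAs outside the cluster were not compared. The 4 seed families therefore match the letters GCACTTT (miR-17 and miR-20a), GCACCTT (miR-18a), TTTGCAC (miR-19a and miR-19b) and GTGCAAT (miR-92a) on the sense strand of an mRNA.

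These letters were sought on the sense strand of the annotated 3′-UTR of each gene, and a match is a description of sequence and not a measured site. A 3′-UTR was assigned to all 37 genes and to 18833 genes in all. The 7 bases that match miR-17 and miR-20a stood in 4 of the 37 genes (10.8%), close to the share of all genes (11.1%, 2082 genes). The 4 genes were *Fzd3*, *Fzd8*, *Wnt8b* and *Wnt9b*, with 2 matches in *Wnt9b*. The windows of 30 bases around the matches in *Fzd3* and *Wnt9b* are shown because both genes reached 1 CPM. *Fzd8* reached it too, and no window of it is printed here. Coordinates are mm10, both genes lie on the minus strand, and capitals mark the 7 matching bases.
Fzd3, chr14:65192526-65192555: tgtttttcttaGCACTTTaactgtgagtgt
Wnt9b, chr11:103730250-103730279: gagcaagggaaGCACTTTaggcttgggtgg
Wnt9b, chr11:103728289-103728318: ggatttgtaaaGCACTTTccatcttcagaa
Each window lies in the last exon of its gene, exon 7 of *Fzd3* and exon 4 of *Wnt9b*. The *Fzd3* match starts at base 10175 of a 3′-UTR of 10270 bases, close to its end. The *Wnt9b* matches start at bases 482 and 2443 of a 3′-UTR of 3386 bases. The *Fzd3* match and the first *Wnt9b* match are followed by an A, the letter that extends a seed match to 8 bases, and no other match to miR-17 in the 37 genes was followed by an A.

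The other 3 seeds matched a different set of members. The miR-19 letters stood in 6 of 37 genes (16.2%, against 10.1% of all genes): *Fzd4*, *Fzd8*, *Wnt1*, *Wnt3*, *Wnt7b* and *Wnt9a*. The miR-18a letters stood in 5 genes (13.5%, against 7.22%): *Fzd8*, *Wnt2b*, *Wnt3*, *Wnt7b* and *Wnt9a*. The miR-92a letters stood in 4 genes (10.8%, against 5.99%): *Dkk2*, *Dkk3*, *Fzd10* and *Wnt5a*. The windows below are those of genes at 1 CPM or more other than *Fzd8*, from the highest mean CPM to the lowest.
Fzd4, miR-19, chr7:89409090-89409119 (plus strand): gatttttttttTTTGCACtgcagcatgcct
Wnt5a, miR-92a, chr14:28526078-28526107 (plus strand): ccctgtgtgatGTGCAATtaatagaaggcc
Dkk2, miR-92a, chr3:132178908-132178937 (plus strand): ccattaatcatGTGCAATacaagcacaggg
Dkk2, miR-92a, chr3:132179258-132179287 (plus strand): aggtaagctggGTGCAATgcagcctgccct
Dkk3, miR-92a, chr7:112118163-112118192 (minus strand): cactggtagatGTGCAATagaaatggctaa
Wnt7b, miR-19, chr15:85537316-85537345 (minus strand): ctcgccattatTTTGCACatccttctttgc
Wnt7b, miR-18a, chr15:85536796-85536825 (minus strand): actccttatcaGCACCTTgggaggggcttg
Wnt9a, miR-19, chr11:59331402-59331431 (plus strand): gcggtgtggacTTTGCACacagcaccagaa
Wnt9a, miR-19, chr11:59331485-59331514 (plus strand): ggagtgtaggcTTTGCACatagtgcaaagg
Wnt9a, miR-18a, chr11:59331867-59331896 (plus strand): ggagggcaggtGCACCTTcataatcgcatg
All of these lie in the last exon of their gene. *Wnt7b* and *Wnt9a* each held matches to both miR-19 and miR-18a, and so did *Wnt3* and *Fzd8*. In *Fzd8* the miR-19 and miR-17 letters share 4 bases, since TTTGCAC starts at base 875 of the 3′-UTR and GCACTTT at base 878.

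By class, matches to at least 1 of the 4 seeds stood in 8 of 19 ligands, in 4 of 10 receptors and in 2 of 8 antagonists. All 4 Sfrp genes lacked the 4 sets of letters, including *Sfrp1*, whose 3′-UTR of 3144 bases is longer than the median of all genes. In all, 14 of the 37 genes (37.8%) held a match, against 4972 genes (26.4%) overall. The 3′-UTRs of the 37 genes were also longer, with a median of 1632 bases against 787 bases over all genes. Per kilobase of 3′-UTR, miR-17 matches stood at 0.0685 in the 37 genes and at 0.0996 in all genes, and miR-19 matches at 0.110 and 0.0887. The values were 0.0685 and 0.0609 for miR-18a, and 0.0685 and 0.0506 for miR-92a. A longer 3′-UTR holds more letters by its length, and its part in these shares was not tested.

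**Figure D1:**
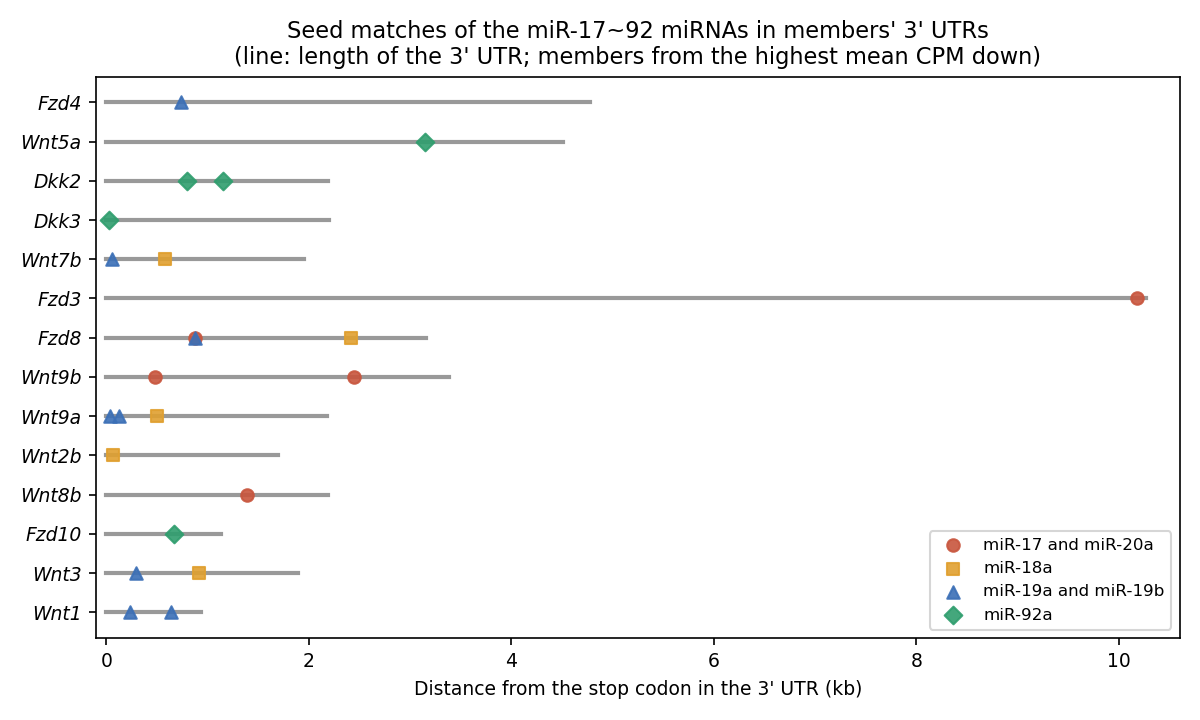
Map of the 3′-UTRs of the 14 genes with a seed match, from the highest mean CPM at the top to the lowest. The x axis is the distance from the stop codon in kilobases, lines give the length of the 3′-UTR, and symbols mark matches to the 4 seed families. The *Fzd3* match lies near the end of a 3′-UTR of 10270 bases, while the *Dkk3* match starts at base 30 of its 3′-UTR.

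Of the 37 genes, 20 reached a mean of 1 CPM, the level taken here as detected. This share of 54.1% was close to the 55.9% of all gene symbols (13001 of 23276). All 37 genes had a RefSeq mRNA row, as did 20470 of the 23276 symbols, so that background also covers symbols without one. The classes differed in their shares: 8 of 10 receptors (80%), 8 of 19 ligands (42.1%), 2 of 4 Sfrp genes and 2 of 4 Dkk genes. Genes of a class are not replicates, so these shares are a description with no test. The shares of the classes lay closer together at a threshold of 0.5 CPM. Just above the threshold stood *Wnt11* at 1.06 CPM and *Wnt7a* at 1.03 CPM, and just below it *Sfrp4* at 0.966 CPM, *Dkk1* at 0.789 CPM and *Wnt2b* at 0.773 CPM.

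**Figure D2:**
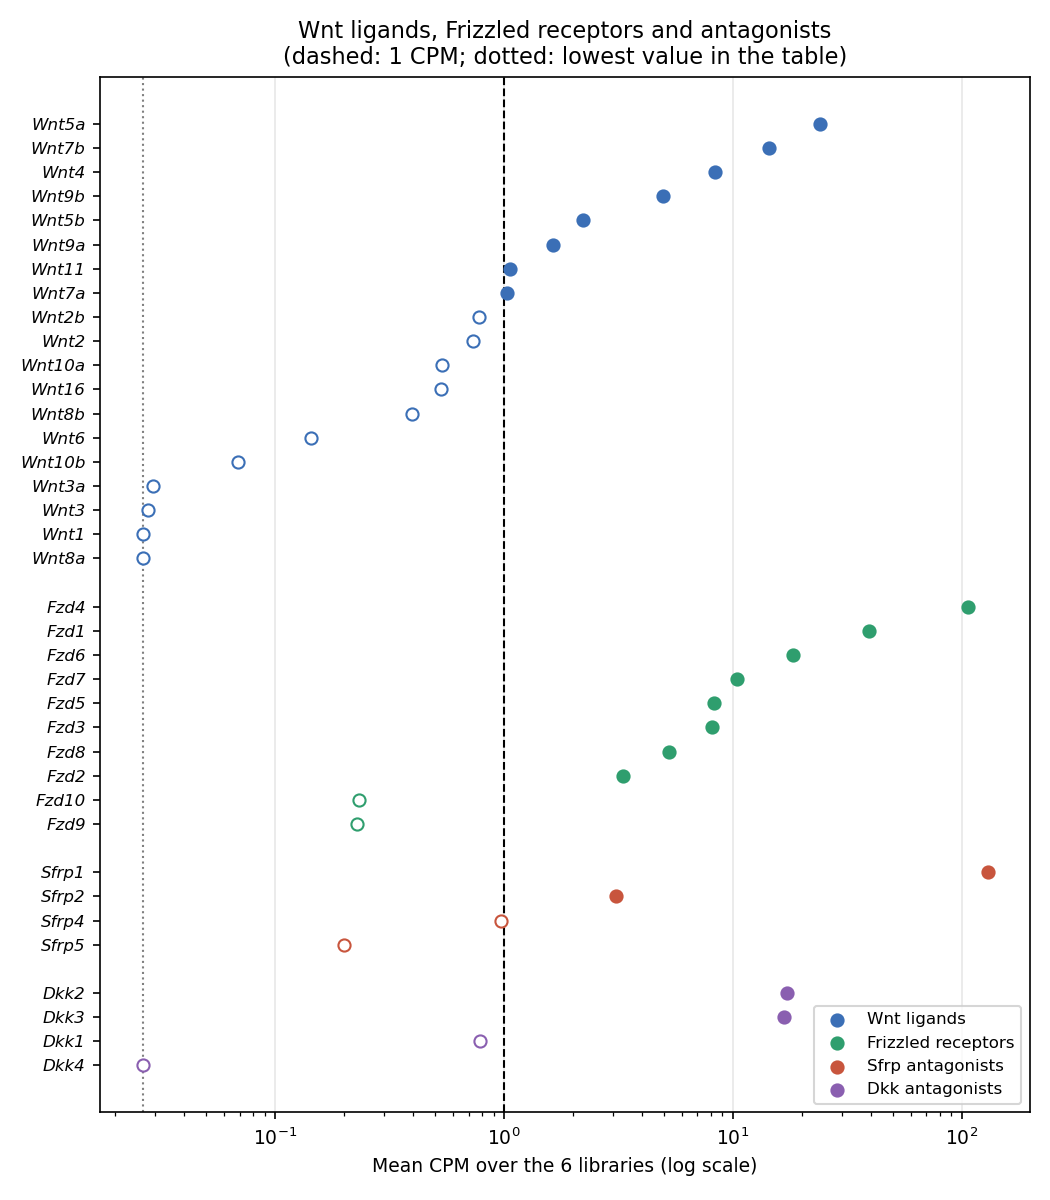
Mean CPM over the 6 libraries (x axis, log scale) of each of the 37 genes, grouped by class. Filled points lie at or above 1 CPM (dashed line), open points below it, and the dotted line marks the lowest value in the table, 0.0263 CPM. *Sfrp1* and *Fzd4* are the only genes above 100 CPM, and the ligands spread from 24.1 CPM down to the lowest value.

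The 8 detected ligands ranged from 1.03 to 24.1 CPM. *Wnt5a*, the ligand best known for signalling without β-catenin, was highest at 24.1 CPM, followed by *Wnt7b* at 14.4 CPM and by *Wnt4* at 8.38 CPM. *Wnt9b* stood at 4.96 CPM, so that both ligands of nephron induction were detected at this age, with *Wnt4* above *Wnt9b*. Lower still were *Wnt5b*, the close relative of *Wnt5a*, at 2.21 CPM, *Wnt9a* at 1.63 CPM, and the 2 ligands near the threshold, *Wnt11* and *Wnt7a*.

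A long transcript collects more reads than a short one, so levels of different genes were compared per kilobase of the RefSeq mRNA. For genes at or near the lowest value in CPM, a level per kilobase reflects mostly the length of the transcript. On that scale *Wnt7b* (chr15:85535437-85582473, 4.60 CPM per kilobase) stood above *Wnt5a* (chr14:28504750-28527448, 2.80), whose transcript is 7010 bases long. *Wnt4* (chr4:137277489-137299726) followed at 1.998 CPM per kilobase and *Wnt9b* at 1.10. *Wnt7b* and *Wnt5a* together held 52.3% of the summed level of all ligands per kilobase. The other detected ligands lay below 1 CPM per kilobase, *Wnt5b* at 0.932, *Wnt11* at 0.563, *Wnt9a* at 0.491 and *Wnt7a* at 0.325. The order of *Wnt11* and *Wnt9a* was the reverse of their order in CPM.

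The 11 ligands below 1 CPM fell into steps. *Wnt2b*, *Wnt2*, *Wnt10a* and *Wnt16* lay between 0.5 and 1 CPM, and *Wnt8b* and *Wnt6* between 0.1 and 0.5 CPM. *Wnt10b* stood at 0.0691 CPM. *Wnt3a* (0.0292 CPM) and *Wnt3* (0.0278 CPM), both classical activators of β-catenin signalling, lay just above the lowest value in the table. *Wnt1* and *Wnt8a* were listed at that lowest value, 0.0263 CPM, which 4617 transcript rows shared.

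The Frizzled receptors, the membrane proteins that bind Wnt ligands, were detected in 8 of 10 cases, and none of the 10 lay between 0.5 and 2 CPM. *Fzd4*, which also serves as the receptor of the ligand norrin in vessels, had the highest mean at 106 CPM, followed by *Fzd1* at 39.4 CPM, *Fzd6* at 18.2 CPM and *Fzd7* at 10.5 CPM. *Fzd5* (8.27 CPM), *Fzd3* (8.14 CPM), *Fzd8* (5.24 CPM) and *Fzd2* (3.32 CPM) formed the lower part of the detected receptors. *Fzd10* at 0.233 CPM and *Fzd9* at 0.228 CPM were the receptors below the threshold.

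The value of *Fzd4* came from a transcript assembled from the reads by the authors, and its RefSeq row (chr7:89404355-89413134) stood at 56.1 CPM. Per kilobase of RefSeq mRNA, *Fzd1* (chr5:4753839-4758035) was highest at 9.38 CPM per kilobase, with *Fzd4* at 8.34. These levels were 1.13 times apart, less than the 1.90 times between the rows of *Fzd4*. The order of *Fzd1* and *Fzd4* can therefore depend on the row used, and the assembled row was given no length. *Fzd6*, which like *Fzd3* is known for planar cell polarity, followed at 4.47, *Fzd7* at 2.31 and *Fzd5* at 1.20. *Fzd2* (0.907), *Fzd8* (0.878) and *Fzd3* (0.639) were lower. *Fzd3* lay close to *Fzd5* in CPM but below *Fzd8* and *Fzd2* per kilobase, its transcript being 12734 bases long.

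Frizzled receptors fall into subfamilies by sequence. On RefSeq rows, *Fzd1*, *Fzd2* and *Fzd7* together held 44.5% of the summed receptor level per kilobase, most of it from *Fzd1*. *Fzd4*, *Fzd9* and *Fzd10* held 30.1%, nearly all of it from *Fzd4*. *Fzd3* and *Fzd6* held 18.0%, and *Fzd5* and *Fzd8* held 7.33%. Each subfamily thus had at least 1 detected receptor.

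The antagonists included the highest level of all 37 genes. *Sfrp1* (chr8:23411502-23449632), which binds Wnt ligands through its frizzled-like domain, stood at 129 CPM and 29.6 CPM per kilobase. That level was at the 95.6th percentile of the 20073 genes with a transcript length. It was 3.16 times that of *Fzd1*, the next of the 37 genes per kilobase on RefSeq rows. *Sfrp2* stood at 3.07 CPM and 1.53 CPM per kilobase. *Sfrp4* was just below the threshold and *Sfrp5* at 0.200 CPM, so that *Sfrp1* made up 93.1% of the summed Sfrp level per kilobase.

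In the Dickkopf family, *Dkk2* (17.3 CPM) and *Dkk3* (16.8 CPM) stood side by side. Per kilobase they were also close, at 4.66 for *Dkk2* (chr3:132085292-132180304) and 4.86 for *Dkk3* (chr7:112116017-112159057), in the reverse order. *Dkk1*, the best studied Lrp5 and Lrp6 inhibitor and itself a target of β-catenin, lay below the threshold at 0.789 CPM, and *Dkk4* was listed at the lowest value.

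Compared as 3 classes, with Sfrp and Dkk genes pooled as antagonists, the receptors had the highest median in CPM and nearly the same median as the antagonists per kilobase. Median levels were 8.20 CPM for receptors, 2.02 CPM for antagonists and 0.731 CPM for ligands, beside 2.36 CPM for all gene symbols. Per kilobase the medians of receptors (1.05) and antagonists (1.04) nearly met, that of ligands was 0.318, and that of all genes was 1.42. Taken apart, the 4 Dkk genes had medians of 8.79 CPM and 2.49 CPM per kilobase. The 4 Sfrp genes had medians of 2.02 CPM and 1.04 CPM per kilobase. The Dkk median in CPM is the midpoint of *Dkk1* (0.789 CPM) and *Dkk3* (16.8 CPM), and no Dkk gene lay near it. It was therefore not ranked against the receptors. The Sfrp and pooled antagonist medians are both the midpoint of *Sfrp4* (0.966 CPM) and *Sfrp2* (3.07 CPM). The median transcript length was 4.36 kb for receptors, 2.21 kb for antagonists and 2.76 kb for ligands.

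Summed over the class, the antagonists were highest, at 41.7 CPM per kilobase, against 28.3 for the receptors and 14.2 for the ligands. The antagonist sum was 71.1% *Sfrp1*. Of the 20 detected genes, 11 lay above the median level of all genes per kilobase, and these were 3 ligands, 4 receptors and the 4 antagonists. The 3 ligands were *Wnt7b*, *Wnt5a* and *Wnt4*, and the 4 receptors were *Fzd1*, *Fzd4*, *Fzd6* and *Fzd7*. The median of all genes also covers genes below 1 CPM, and the share of all detected genes above it was not computed. In CPM, the 20 detected genes had a median of 8.32, beside 12.6 for the 13001 detected gene symbols. The ranges of receptors and ligands overlapped.

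**Figure D3:**
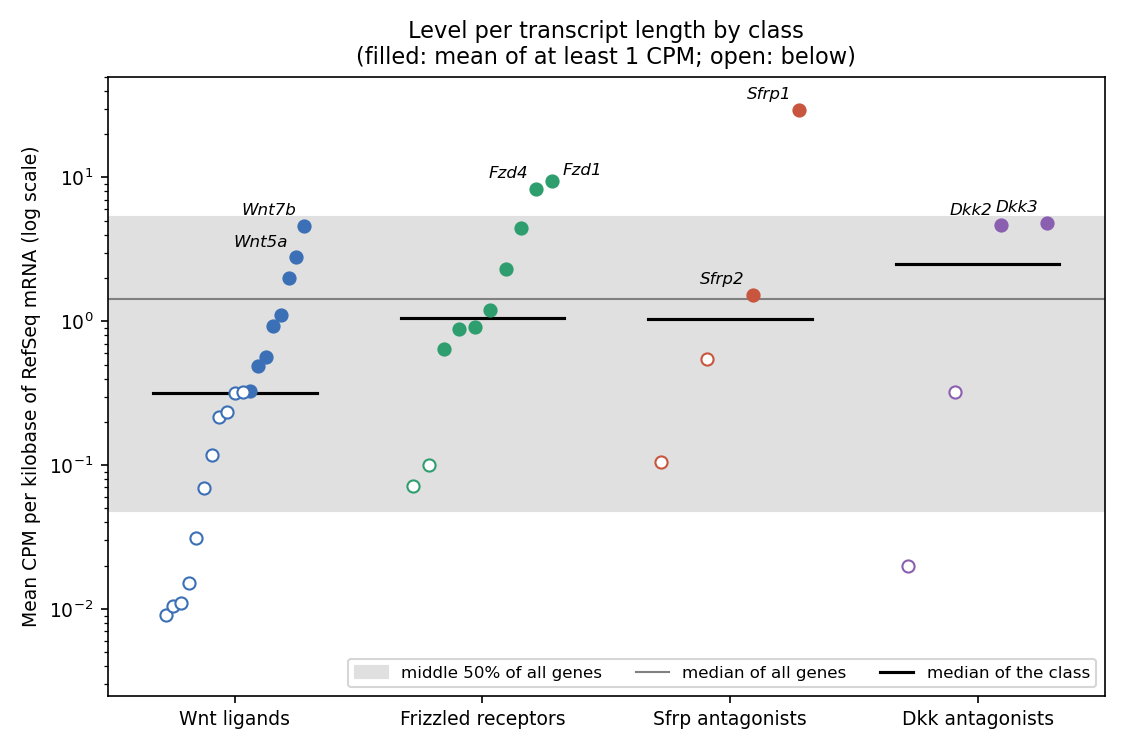
Mean CPM per kilobase of RefSeq mRNA (y axis, log scale) for the 37 genes in their 4 classes, with filled points for genes at 1 CPM or more. Black bars are class medians, the grey line is the median of all genes (1.42) and the grey band their middle 50%. *Sfrp1*, *Fzd1* and *Fzd4* lie above the band. The lowest points are genes at or near the lowest value in CPM, and their order here reflects mostly transcript length.

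Several transcripts were listed for 11 of the 37 genes. The RefSeq rows of a gene had nearly equal values, with a ratio of highest to lowest of at most 1.06 in the 5 genes with more than 1 such row. Larger gaps lay between RefSeq rows and rows assembled from the reads. The highest row was 2.49 times the lowest in *Wnt5b*, 1.90 times in *Fzd4*, 1.34 times in *Wnt2b* and 1.30 times in *Wnt5a*. In *Fzd4* and *Wnt5a* the assembled row was the higher, and in *Wnt5b* and *Wnt2b* the RefSeq row. The RefSeq row of *Wnt11* stood at 1.01 CPM, still above the threshold, and the assembled row of *Wnt7a* at 0.971 CPM, below it.

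**Figure D4:**
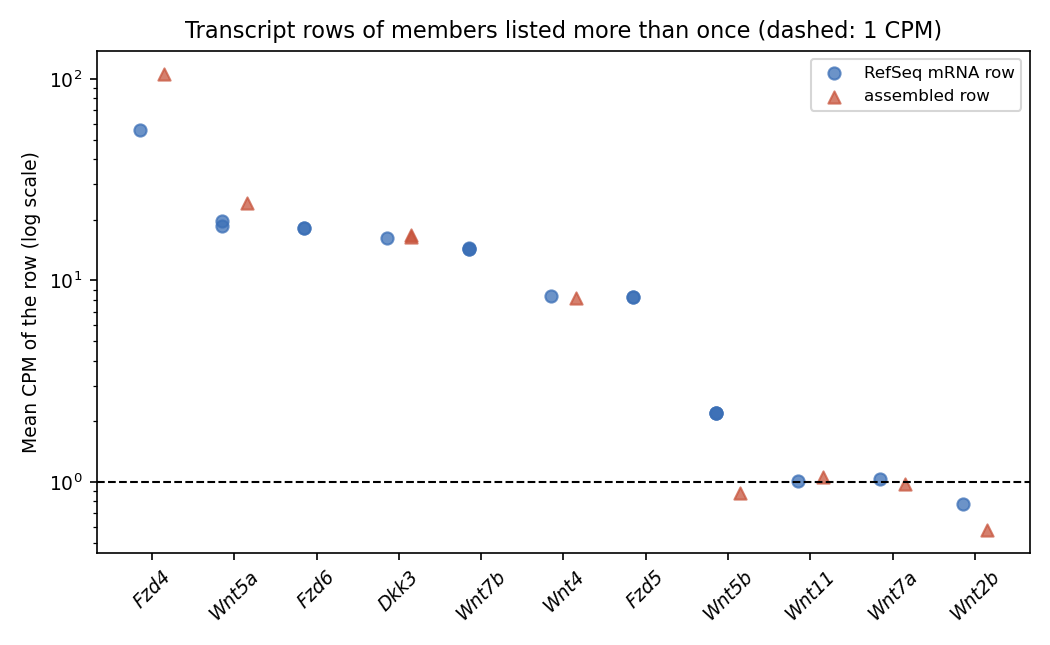
Mean CPM (y axis, log scale) of every row of the 11 genes listed more than once, with circles for RefSeq mRNA rows and triangles for rows assembled from the reads. The *Fzd4* rows are 1.90 times apart and those of *Wnt5b* 2.49 times, while the other genes' rows lie closer together.

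The rest of the pathway was described with a list of 58 further genes, of which 44 (75.9%) reached 1 CPM, beside 55.9% of all gene symbols. That background also covers symbols without a RefSeq mRNA row, and the list was chosen by known role. The counts by role below are therefore a description with no test. All 6 co-receptors were detected, from *Ryk* (11.9 CPM per kilobase) and *Lrp6* (10.4), the co-receptor of the β-catenin branch, to *Ror1* (0.443). *Wls*, which carries Wnt ligands to the cell surface, stood at 37.1 CPM per kilobase, above each of the 37 genes, and *Porcn*, which attaches their lipid, at 1.07. Of the 7 R-spondins and their receptors, which keep Frizzled receptors at the surface, only *Lgr4* (15.3 CPM per kilobase) was detected. *Rspo2* was the lowest of them per kilobase (0.00832) and lay just above the lowest value in CPM (0.0278). *Rspo3* stood just under the threshold at 0.994 CPM. *Rnf43* (1.10 CPM per kilobase) and *Znrf3* (1.07), the ubiquitin ligases that remove Frizzled receptors, were both detected.

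Of 10 other extracellular inhibitors 5 were detected. *Sostdc1*, a secreted antagonist of Wnt and BMP signals, was the highest at 36.8 CPM per kilobase, and *Draxin* the lowest at 0.0121. In CPM, *Dkkl1* (0.0597) lay below *Draxin* (0.0629). *Frzb*, the Sfrp gene outside the naming rule, stood at 11.3 CPM and 3.58 CPM per kilobase, between *Sfrp1* and *Sfrp2*. With *Frzb* counted, 3 of 5 Sfrp genes would be detected.

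Inside the cell, all 10 genes of cytoplasmic transduction were detected, from *Ctnnb1*, which encodes β-catenin (69.3 CPM per kilobase), to the Dishevelled gene *Dvl2* (1.62). Of 8 nuclear factors 7 were detected, with *Tcf7l1* (6.90) the highest and *Pygo1* (0.111) the lowest. Among 4 feedback targets of β-catenin signalling 3 were detected, with *Nkd1* at 2.33, *Axin2* at 1.41, close to the median of all genes, and *Sp5* below the threshold at 0.383. Of 9 planar cell polarity genes 8 were detected, with *Celsr2* the highest (5.03) and *Celsr3* the lowest (0.00667).

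**Figure D5:**
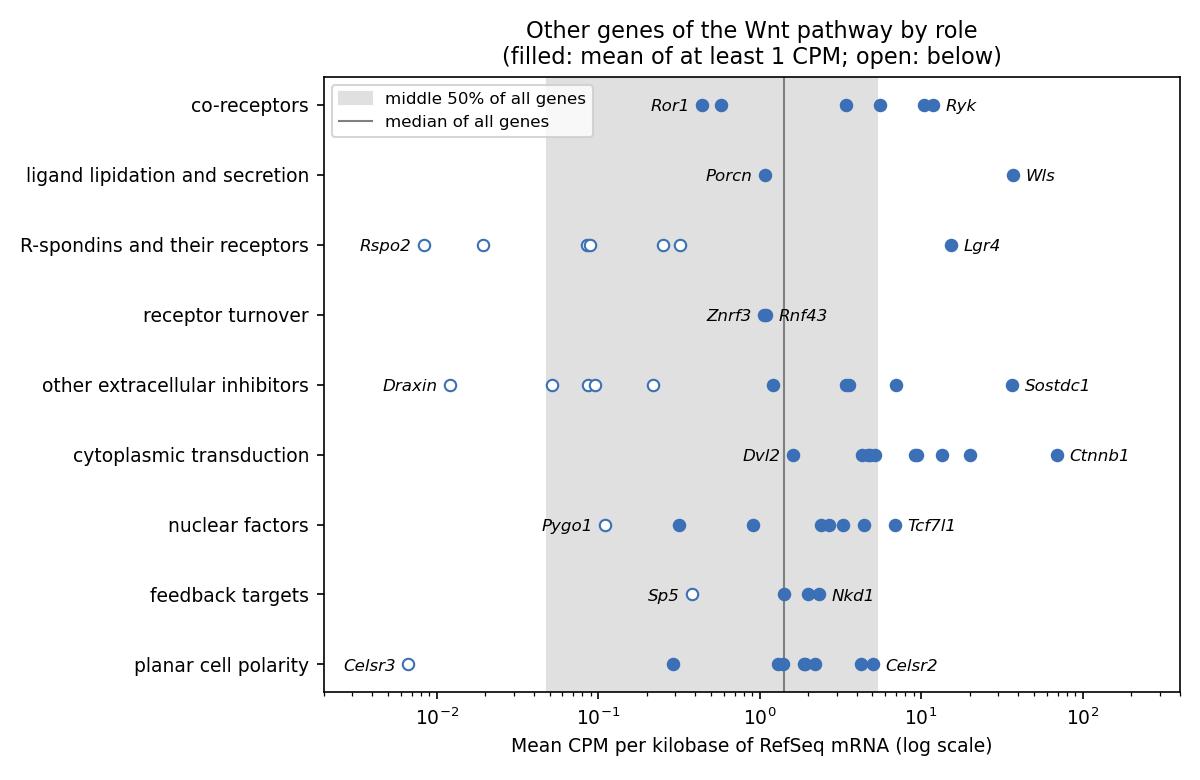
Mean CPM per kilobase of RefSeq mRNA (x axis, log scale) of the 58 other Wnt pathway genes by role, with filled points for genes at 1 CPM or more and the highest and lowest gene of each role named. The grey line is the median of all genes and the grey band their middle 50%. *Ctnnb1*, *Wls* and *Sostdc1* stand furthest to the right, and only 1 of 7 R-spondin genes and receptors is filled.

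The tissue label was set beside markers of cell types. All 18 markers of cell types in the kidney were detected, beside 55.9% of all gene symbols. They ran from tubule genes such as *Slc34a1* (423 CPM per kilobase, proximal tubule) and *Umod* (374, thick ascending limb) to endothelial, stromal, podocyte and macrophage genes. The endothelial, stromal and macrophage genes are not particular to the kidney. Of 5 genes of other organs, *Alb*, the liver's albumin, stood at 13.4 CPM, and *Myh6*, *Ins2*, *Myog* and *Neurod1* lay between the lowest value and 0.171 CPM. The cells of the kidney that gave the reads of each Wnt pathway gene cannot be told from these values.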

How the data were processed

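RNA of 6 mouse kidneys (3 *Pkd1* F/RC SKO and 3 *Pkd1* F/RC DKO) was sequenced by the authors from total RNA with a strand-specific kit as 51 bp reads. The reads were mapped to mm10 with a mapping quality of at least 10. Whether counting used strand is not given in the sources used here. The submitters' processing notes name bcl2fastq 1.8.4, TopHat2 2.0.12, Cufflinks, featureCounts, Subread 1.4.6 and edgeR 3.2.4, with no role for each. The series' own text gives 3 mice to each group.

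The deposited value used is a log2 CPM per transcript, which the authors averaged over all 6 libraries, prior count included. It was turned into CPM as 2 to that power. The table's 4 other columns hold the authors' own comparison of DKO with SKO (log2 fold change, likelihood ratio, p-value and adjusted p-value). They were not used, so no test of the genotypes was made. The planned count test could not be run for want of counts per library. Library depths are not held, so neither intervals nor floors were set. CPM summed to 1007270 over all rows. Whether a read on several transcripts of a gene was counted for each is not given in the sources used here.

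A gene was represented by its highest row, or for levels per kilobase by its highest RefSeq mRNA row over the length of that transcript in GENCODE M21 (GRCm38, the assembly of mm10), which 37 of 37 genes and 20073 of all genes had. 3′-UTRs were read from the same annotation and genome, and the seed search was tested on simulated data with planted sites. Every gene at 1 CPM or more was named, with the 3 nearest below it and the highest and lowest gene of each pathway role. Rows of the 11 genes, *Frzb*, *Lrp6*, *Rspo3*, *Axin2*, other seeds than miR-17 and neighbouring genes were added after their values were seen. The genes and lists were chosen with earlier results of these data known. *Adgre1* was found under its older symbol *Emr1*. Promoter sequences were at hand for 25 of 37 genes (67.6%, under the 80% needed), so the check of promoter CpG was void. Protein features were not analysed here. Python 3.11.15, numpy 2.4.6, pandas 2.3.3 and matplotlib 3.10.9 were used. Alternatives were detection at 0.5 or 2 CPM, other choices of row, levels less the lowest value, and seed matches of 6 or 8 bases.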

Additional observations from a re-analysis of the deposited data

How the results depend on the processing

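The detected ligands numbered 5 at a threshold of 2 CPM, against 8 at 1 CPM. Class medians moved per kilobase to 0.318 for ligands, 1.05 for receptors and 1.04 for antagonists, by construction since length enters. Genes with a miR-17 match numbered 2 when 8 bases were required (3.30% of all genes held one) and 15 with 6 bases (33.5%), against 4 with 7 bases. The other 37 class and count results kept within 1.5 times their main value. Among them were 26 detected genes at 0.5 CPM and 17 at 2 CPM, against 20. That bound leaves room for the class shares to move. At 0.5 CPM, 12 of 19 ligands, 8 of 10 receptors and 6 of 8 antagonists were detected. The level of *Fzd4* was 56.1 CPM when rows assembled from the reads were left out. Its level per kilobase rests on that RefSeq row. Its order with *Fzd1*, the receptor shares and the receptor sum can therefore depend on the choice of row. Summing all rows of a gene raised, by construction, the levels of the 11 genes with several rows. *Wnt2b* passed the threshold in this way (1.30 CPM, against 0.773), so that 9 ligands and 21 of the 37 genes reached 1 CPM by their sums. A read on several rows of a gene may enter such a sum more than once. The check of promoter CpG was not run. No paired analysis was possible because the values are means over all libraries, and for the same reason no library could be left out in turn. The main limits are that no spread between animals is behind any level, that the depth of the libraries is unknown, and that the genotypes were not compared.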

Other observations

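Several Wnt genes lie next to each other on a chromosome, and 4 pairs among the 37 genes were less than 100 kb apart in mm10. They were picked after their values were seen. *Wnt9b* (chr11:103727364-103749821, minus strand) and *Wnt3* (chr11:103774150-103817957, plus strand) start from opposite strands with 24.3 kb between them, and their levels were 1.10 and 0.00904 CPM per kilobase. *Wnt3a* (chr11:59248033-59290752, minus strand) and *Wnt9a* (chr11:59306928-59333552, plus strand) are arranged in the same way 16.2 kb apart, with levels of 0.0106 and 0.491 CPM per kilobase. In both pairs the Wnt9 gene was detected and its Wnt3 neighbour lay just above the lowest value in the table. In CPM these neighbours stood at 0.0278 (*Wnt3*) and 0.0292 (*Wnt3a*), where a level per kilobase reflects mostly transcript length. *Wnt6* (chr1:74771892-74785322) and *Wnt10a* (chr1:74791516-74804179) lie on the plus strand with a gap of 6.19 kb and were both below 1 CPM, at 0.144 and 0.537 CPM. *Wnt10b* (chr15:98770712-98778150) and *Wnt1* (chr15:98789857-98793837) are 11.7 kb apart on opposite strands, with *Wnt10b* at 0.0691 CPM and *Wnt1* at the lowest value.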
